A study of Schizosaccharomyces pombe with 2 samples.

Results

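The GID genes of fission yeast (Schizosaccharomyces pombe) encode the subunits of a multi-part ubiquitin ligase, and their transcripts were compared between a strain lacking mga2 and its control. The members were the gene probes of the array whose gene carries a reference symbol of gid followed by a number. This gave 8 genes, gid1 (SPCC1259.12c), gid2 (SPBC29A3.03c), gid4 (SPAC3H1.14), gid5 (SPAC26H5.04), gid7 (SPAC343.04c), gid8 (SPAC12B10.13), gid9 (SPBC106.13) and gid10 (SPAP8A3.13c), among 5057 genes with a probe. The rule itself uses names, but the family was selected on its log2 ratios of mga2Δ over WT in these same arrays. The calls below are therefore a description of the family and no independent test of it.

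The tested strain was ESY173, in which mga2, the gene of a transcriptional activator of lipid genes, is deleted (mga2Δ below). It was set against KGY425 (WT below), which the sample labels call wild type. According to the design text of the series, however, sre1 is missing from both; sre1 encodes an SREBP, a sterol-responsive transcription factor. Both strains were grown to log phase in rich YES medium and spent 1.5 h without oxygen in an anaerobic chamber, and no culture with oxygen was analysed here. RNA of 2 biological replicate pairs was hybridised to 2 two-colour Agilent arrays, with mga2Δ RNA in Cy5 on array 1 and in Cy3 on array 2.

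GID stands for glucose-induced degradation deficient. In budding yeast, where the complex is best known, it marks gluconeogenic enzymes with ubiquitin for destruction when glucose returns to starved cells. A scaffold carries a pair of RING-type subunits, which bring in the ubiquitin-conjugating enzyme, and an adaptor holds an exchangeable receptor that recognises the start of the substrate protein. The roles given below for single subunits are those of the budding yeast proteins of the same name.

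Each probe was printed as 3 spots on each array, and each gene below is represented by 1 probe. Median Cy3 intensity of the gene spots was 897.5 on array 1 and 858 on array 2, against 18.5 and 18 at the negative control spots. Median Cy5 intensity was 2322.5 and 1579, against 61 and 62, and 0 gene spots were saturated. The mga2 probe checked the labels: its log2 ratio of mga2Δ over WT averaged −6.70 ± 0.81 (SD, n = 2 arrays), with −7.27 on the first array and −6.13 on the second. In mga2Δ, 0 of its spots on array 1 and 1 on array 2 were well above background, so mga2 was at least 84.9-fold lower there. For sre1, 0 spots rose well above background in mga2Δ or in WT, which leaves the deletion unsettled. The number of arrays limits the precision, since each SD is between 2 arrays.

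All 8 GID genes were measured above background in both strains on both arrays, and 7 rose in mga2Δ. None was lowered, and gid10 did not pass the test. Adjusted p-values below come from limma over all 4964 genes tested, with a Benjamini-Hochberg adjusted p of 0.05 as the threshold. Across those genes 18.4% were raised and 10.9% lowered, 29.3% in all. Ratios are relative to the bulk of genes on the array, and more transcript in every cell cannot be told apart from more cells with the transcript. The median log2 ratio of the 8 genes was 0.48, or 1.39-fold, against 0.00 over all genes tested, and 11.7% of all genes had a mean ratio above that median. The median was 0.43 on array 1 and 0.49 on array 2. The calls depended on the setting: 4 genes (gid1, gid2, gid5 and gid9) were raised with the prior degrees of freedom of the test halved, where 9.93% of all genes were, and gid5 alone with median centring in place of loess, where 2.94% were. The ratios of the 7 genes under median centring lay between 0.37 and 1.05.

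Both scaffold subunit genes rose. The product of gid1, also known as Vid30, is a core scaffold protein of the complex. Its normalized log2 channel level was 10.78 and 10.75 in mga2Δ on arrays 1 and 2, against 10.34 and 10.23 in WT. The log2 ratios were 0.43 and 0.52 (mean 0.48 ± 0.06, SD, n = 2 arrays, limma adjusted p = 0.00982). Both mga2Δ levels of gid1 lay above both WT levels. Gid8 is the other scaffold protein, and 1 spot of its probe on array 1 was left out as an outlier. Levels of gid8 were 9.21 and 9.32 in mga2Δ, against 8.84 and 8.86 in WT. The ratios were 0.36 and 0.46 (mean 0.41 ± 0.07, adjusted p = 0.0171), and the strains did not overlap here either.

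The largest difference of the family was in gid5, which encodes the armadillo-repeat adaptor that holds the substrate receptor. Its log2 level was 11.77 and 11.95 in mga2Δ, against 10.71 and 10.86 in WT. The log2 ratios were 1.06 and 1.09 (mean 1.07 ± 0.02, SD, n = 2 arrays, limma adjusted p = 0.000292), a 2.11-fold rise. It was the only member to reach 2-fold, and 3.91% of all genes tested had a higher mean ratio. The 6 spots lay close together, from 1.04 to 1.10. The 95% interval of its ratio, 0.86 to 1.29, overlapped that of gid9 (0.54 to 1.10) and lay above those of the other 6 members. The gene also lies next to mga2 in the genome, which is taken up below.

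The RING-type subunits gid2 and gid9 both rose. Gid2 (Rmd5) and Gid9 form the catalytic pair of the ligase. The gid2 level was 10.54 and 10.63 in mga2Δ, against 10.12 and 10.04 in WT, with ratios of 0.42 and 0.59 (mean 0.51 ± 0.12, adjusted p = 0.00921). For gid9 the level was 11.03 and 11.26 in mga2Δ, against 10.41 and 10.24 in WT, with ratios of 0.62 and 1.02 (mean 0.82 ± 0.28, adjusted p = 0.00337). The second-largest rise of the family on each array was that of gid9, and it also had the largest spread between arrays. The spots of gid9 lay between 0.60 and 0.64 on array 1 and all at 1.02 on array 2.

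Gid7 is a WD40-repeat protein that joins copies of the budding yeast complex into larger assemblies. The gid7 level was 11.39 and 11.40 in mga2Δ, against 10.80 and 11.04 in WT. The ratios were 0.59 and 0.37 (mean 0.48 ± 0.16, SD, n = 2 arrays, limma adjusted p = 0.0134). Of the 8 genes it alone had its larger ratio on array 1. On array 2 its spots ranged from 0.16 to 0.49, the widest range within an array among the members, and the lowest of these was the lowest spot of all 7 raised genes.

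Of the substrate receptor genes, gid4 rose and gid10 did not pass the test. Gid4 is the receptor for proteins that start with proline, and Gid10 is a related receptor that can take its place. The gid4 level was 10.44 and 10.36 in mga2Δ, against 10.09 and 9.99 in WT, with ratios of 0.35 and 0.38 (mean 0.36 ± 0.02, adjusted p = 0.0245). This was the smallest rise of the 7. For gid10 the level was 11.98 and 11.98 in mga2Δ, against 12.01 and 11.95 in WT, with ratios of −0.03 and 0.03 (mean 0.00 ± 0.04, adjusted p = 0.993). The strains overlapped for gid10, and 3 of its 6 spots were above 0. The 95% interval of the gid10 ratio ran from −0.21 to 0.21, so a small change in either direction was not detectable with 2 arrays. It overlapped the interval of gid4, 0.15 to 0.57. The gid4 ratio exceeded the gid10 ratio by 0.38 on array 1 and by 0.34 on array 2, a difference chosen after the values were seen and not tested. With the ratios centred on the spike-in RNAs gid10 stood at 0.20 (adjusted p = 0.113) and with the authors' deposited ratios at −0.08 (adjusted p = 0.547), so its sign depends on the centre.

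**Figure D1:**
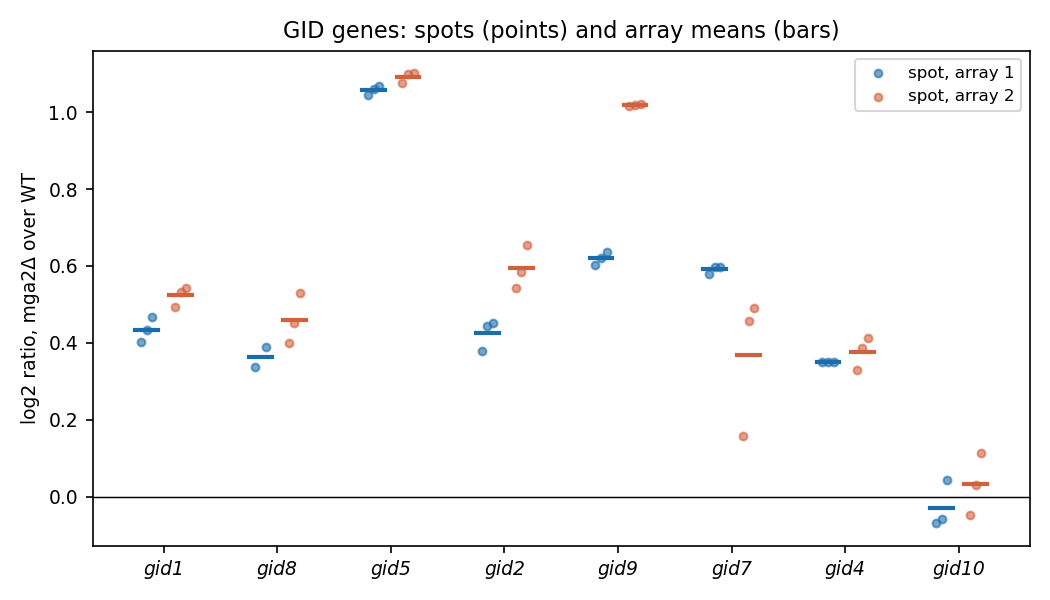
Log2 ratio of mga2Δ over WT for each GID gene, ordered as scaffolds (gid1, gid8), adaptor (gid5), RING pair (gid2, gid9), gid7 and receptors (gid4, gid10). Points are single spots, horizontal bars are array means, and colours mark the 2 arrays. All 41 spots of the 7 raised genes lie above 0, and gid10 straddles 0.

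Across the family, both mga2Δ levels lay above both WT levels in 7 of 8 genes, as they did in 36.4% of all genes tested. The 7 raised genes were the same ones that had ratios above 0 on both arrays, which 40.1% of all genes had. Their spots, 41 after the outlier was left out, were all above 0, from 0.16 to 1.10. The SD between arrays ranged from 0.02 to 0.28, with a median of 0.07 against 0.10 over all genes. In the dye direction, with both arrays taken as Cy5 over Cy3, no member exceeded 0.20 in size.

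**Figure D2:**
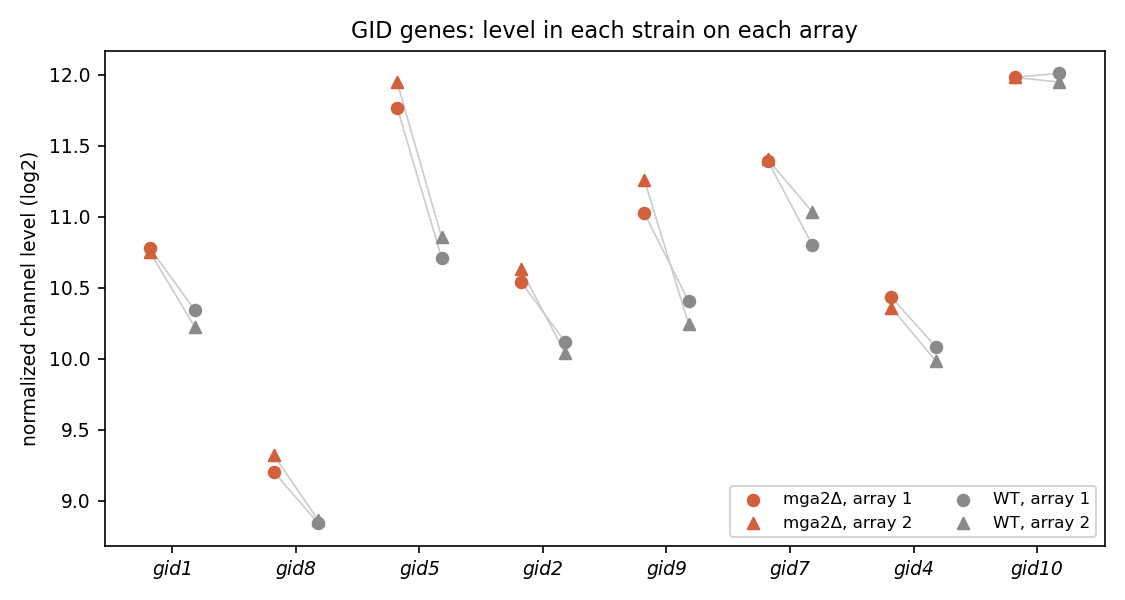
Normalized log2 channel level of each GID gene in mga2Δ (left of each pair) and WT (right), with circles for array 1 and triangles for array 2. Grey lines join the 2 strains on 1 array; levels of different genes come from different probes and cannot be set against each other. The strains are apart for 7 genes, and for gid10 all 4 levels lie between 11.95 and 12.01.

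Of the members, gid5 lies next to the deleted mga2. In the reference gene table gid5 is the nearest gene with a probe on one side of mga2, and several annotated non-coding RNAs between or across them have no probe here. On the other side the nearest genes with a probe are pot1, which encodes a telomere protein, and SPAC26H5.07c. The pot1 ratios were 0.04 and 0.23 (mean 0.14 ± 0.13, SD, n = 2 arrays, limma adjusted p = 0.323), and those of SPAC26H5.07c were −0.16 and −0.03 (mean −0.09 ± 0.09, adjusted p = 0.479). On the far side of gid5, pcf2, a chromatin assembly factor subunit gene, had ratios of 0.00 and −0.47 (mean −0.23 ± 0.34, adjusted p = 0.218). Of the 4 nearest probed genes around the deletion, gid5 was thus the one that passed the test. In these strains the loss of Mga2 and the altered locus beside gid5 cannot be told apart. Without gid5, 6 of the other 7 members were raised, against 18.4% of all genes, in a family selected on these same ratios. With spike-in centring, where 38.7% of all genes were raised, pot1 was called raised (0.34, adjusted p = 0.0299). With trend and robust settings, where 921 of 4964 genes were lowered, pcf2 was called lowered (−0.23, adjusted p = 0.036).

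The genes beside the members were called about as often as genes in general. The nearest genes with a probe on either side of each member, a choice made after values were seen, numbered 15 without mga2. Of these 2 were raised and 2 lowered, with a median log2 ratio of −0.06, against 18.4% raised and 10.9% lowered over all genes. The raised neighbours were rhp41, a DNA repair gene beside gid8 (0.32 ± 0.06, adjusted p = 0.0389), and tpp2 beside gid10 (0.39 ± 0.21, adjusted p = 0.0355). The lowered ones were the genes on both sides of gid9, tho4 at −0.53 ± 0.03 (adjusted p = 0.00644) and sda1 at −0.56 ± 0.05 (adjusted p = 0.00519). The annotated span of sda1 overlaps that of gid9, as does that of his7 with gid2 and that of apc11 with gid7. Yet his7 (0.15 ± 0.05) and apc11 (−0.06 ± 0.05) did not pass (adjusted p = 0.263 and 0.665). Non-coding RNAs without a probe also overlap the annotated spans of gid1, gid2, gid4, gid5, gid7, gid9 and gid10. Whether a probe could bind an overlapping transcript could not be checked without probe sequences.

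**Figure D3:**
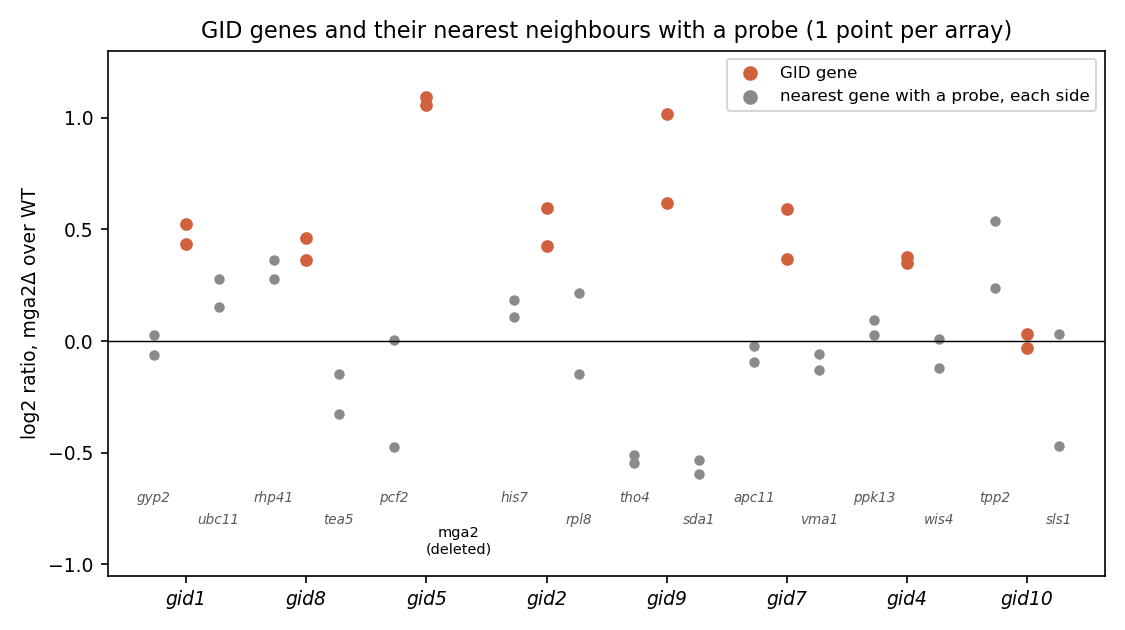
Log2 ratios of mga2Δ over WT for each GID gene (coloured) and for the nearest gene with a probe on each side (grey, named below), with 1 point per array. The mga2 point itself, at −7.27 and −6.13, is beyond the axis and not drawn. Around gid9 both neighbours lie below 0 while gid9 lies above it.

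Most genes listed as partners of the complex, a list chosen with earlier results of these data known, were also raised in mga2Δ. Of these 5 genes, 4 passed as raised and none lowered, against 18.4% raised and 10.9% lowered over all genes. The list held the ubiquitin-conjugating enzyme that serves the complex, a ubiquitin protease and ubiquitin. It also held fission yeast counterparts of enzymes of the kind the budding yeast complex destroys. The enzyme gene ubc8 had log2 levels of 12.27 and 12.35 in mga2Δ, against 11.74 and 11.51 in WT, with ratios of 0.53 and 0.84 (mean 0.68 ± 0.22, SD, n = 2 arrays, limma adjusted p = 0.00484). Both mga2Δ levels of ubc8 lay above both WT levels. The ubiquitin protease gene ubp14, whose budding yeast counterpart is also named Gid6, had ratios of 0.30 and 0.42 (mean 0.36 ± 0.08, adjusted p = 0.0286). It did not pass with the authors' deposited ratios (0.30, adjusted p = 0.0501).

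The larger differences among the partners were in ubi4 and fbp1. The polyubiquitin gene ubi4 had levels of 14.85 and 15.12 in mga2Δ, against 12.81 and 12.85 in WT, a 4.45-fold rise (mean log2 ratio 2.15 ± 0.16, limma adjusted p = 2.84e-05). The gene of fructose-1,6-bisphosphatase, fbp1, a glucose-repressed gluconeogenic enzyme whose budding yeast counterpart is the best-known GID substrate, had levels of 8.54 and 8.26 in mga2Δ, against 6.90 and 6.64 in WT. Its mean ratio was 1.63 ± 0.01 (adjusted p = 5.25e-05), a 3.09-fold rise. The size of the fbp1 rise depended on the processing, with a mean log2 ratio of 2.06 with a normexp offset of 16, 2.39 in the authors' deposited ratios and 2.60 with the scanner's processed signals. Its WT signal was dim, at 55.5 and 107 on arrays 1 and 2 against local backgrounds of 15.8 and 59.7. These are transcript ratios and say nothing of the amount of either protein. The malate dehydrogenase gene mdh1 had ratios of 0.23 and 0.15 (mean 0.19 ± 0.05, adjusted p = 0.158) and did not pass.

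Other ubiquitin ligase genes, and conjugating enzyme genes, were set beside the family as a description, with no test between the lists. Each count is read against the 18.4% raised and 10.9% lowered over all genes. Of 14 tested genes of the anaphase-promoting complex and its activators, 2 were raised (14.3%) and none lowered, with a median ratio of 0.01, so the raised share was near that of all genes. The raised ones were apc10 (0.45 ± 0.27, adjusted p = 0.0291) and cut9 (0.44 ± 0.18, adjusted p = 0.02). The subunit gene cut23 (0.23 ± 0.22) and the activator gene slp1 (−0.21 ± 0.06) did not pass. Of 28 cullin ligase genes, 12 were raised (42.9%, against 18.4% of all genes) and 1 lowered (3.57%, against 10.9%), with a median of 0.25. The raised ones with the largest ratios encode F-box proteins: pof14 (1.38 ± 0.28, adjusted p = 0.000327), pof1 (0.63 ± 0.18), pof9 (0.59 ± 0.05) and pof13 (0.48 ± 0.09). Of 14 ubiquitin-conjugating enzyme and related genes, 3 were raised (21.4%) and none lowered, with a median of 0.14, again a raised share near that of all genes. These were ubc8 itself, ubc6 (0.59 ± 0.04, adjusted p = 0.00427) and ubc4 (0.53 ± 0.12, adjusted p = 0.00806), while ubc11 at 0.21 ± 0.09 did not pass.

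**Figure D4:**
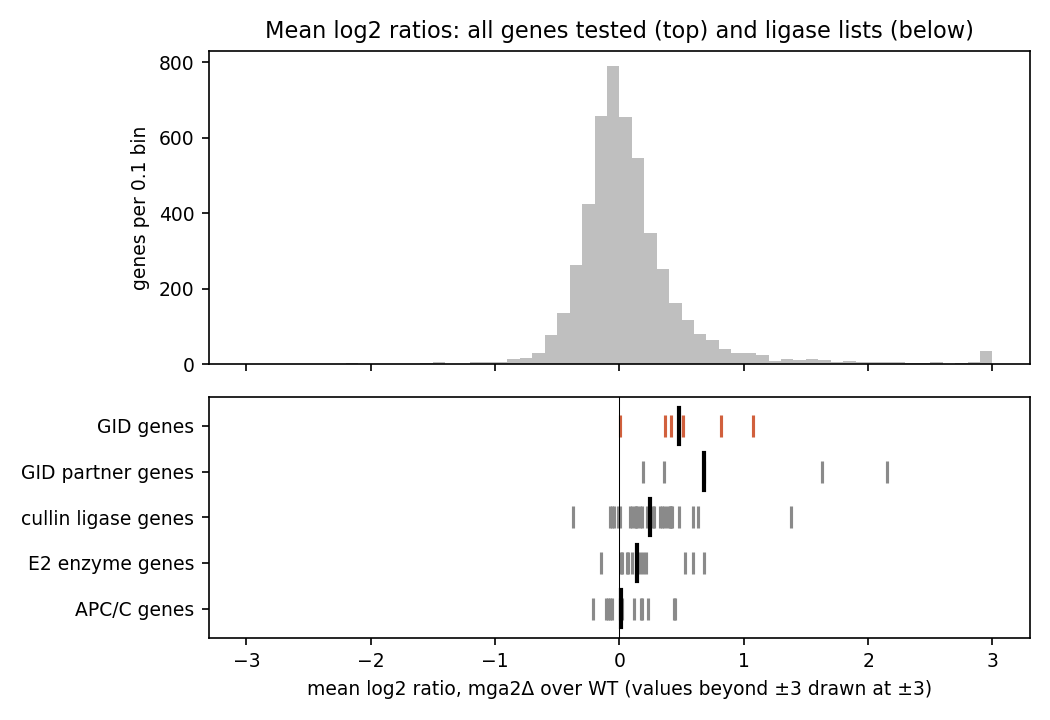
Top, the number of genes by mean log2 ratio of mga2Δ over WT for all 4964 genes tested. Below, 1 tick per gene for the GID genes, their partners, and other ubiquitin ligase and conjugating enzyme lists. Black bars are the list medians (0.48 for the GID genes and 0.01 for the anaphase-promoting complex, APC/C).

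By the pair of ratios on the 2 arrays, the genes nearest to gid5 were pol4, SPBPB21E7.08 and gsf2, at Euclidean distances of 0.02 to 0.05 log2 units. Those nearest to gid10 were cch1, sec73 and cbl1, all within 0.01. With 2 arrays such likeness is common: 14 genes lay within 0.1 of gid5 and 447 within 0.1 of gid10.

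**Figure D5:**
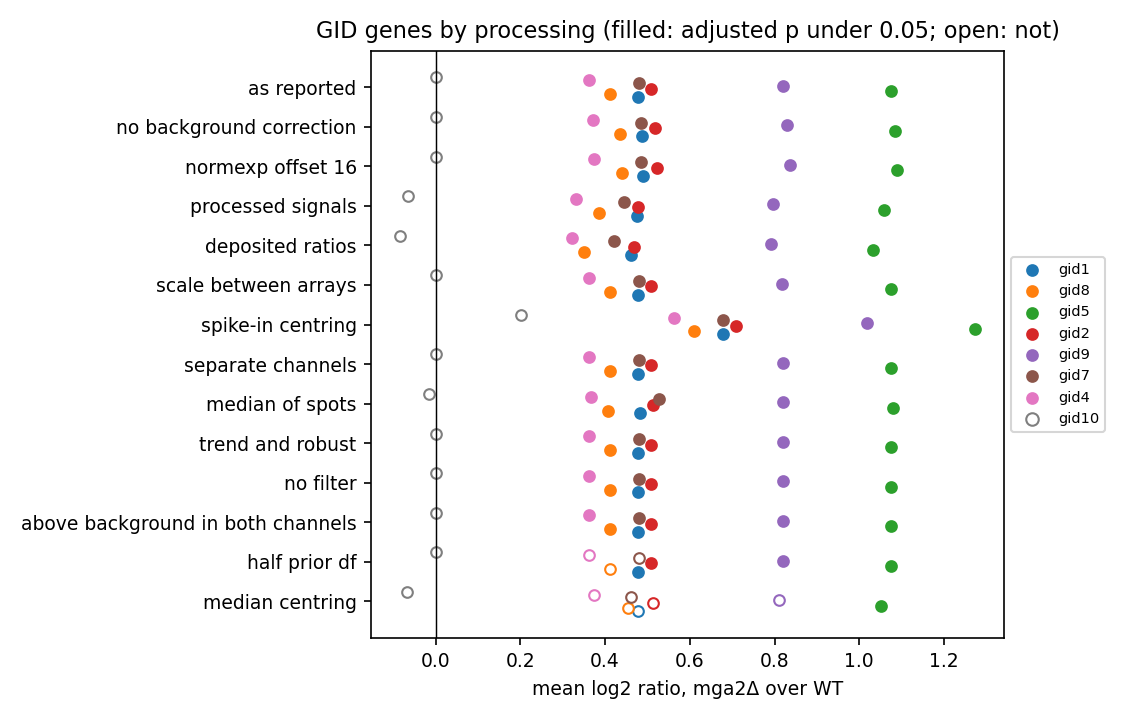
Mean log2 ratio of each GID gene (colours) under each way of processing the data. Filled points have an adjusted p under 0.05 and open points do not. Ratios of the 7 raised genes stay above 0 throughout, while most points turn open with median centring and 3 with halved prior degrees of freedom.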

How the data were processed

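The deposited scanner tables hold median spot and local background intensity values, extracted with Agilent Feature Extraction 10.5.1.1, per the file headers. They also hold the log10 ratio of Cy5 over Cy3 that the same software computed, per the file headers. RNA (400 ng) was amplified from oligo-dT primers with spike-in RNAs added, per the labels' protocols. The authors' deposited table gives log2 ratios by probe. These correlated with the scanner ratios of mga2Δ over WT at 0.986 on each array and had medians of −0.078 and −0.115. Their means lay at 0 within rounding, so each column is centred on its mean. Partek is named beside Feature Extraction in the submitters' processing notes, and the normalization steps are not given in the sources used here.

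Median intensities were corrected with normexp (offset 50) and normalized by loess within arrays, with control and outlier spots at weight 0 (limma 3.58.1, R 4.3.3). Outlier spots were dropped, the others averaged, and array 2 turned. A gene was tested if 2 or more spots were well above background in either channel on each array. Ratios were tested against 0 with lmFit and eBayes, two-sided, with 1 residual and 5.62 prior degrees of freedom. The 95% intervals use the moderated standard error. Channel levels are after loess and Aquantile. The steps were also run on simulated data with fewer changed genes than were called here, as a check of the code only. Symbols came from RefSeq assembly ASM294v3 (5024 probes matched, 33 not), used for names and neighbours. Both arrays share a slide and a scan.

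Members, lists and alternatives were chosen with earlier results of these data known. Named genes are the members, strain checks, annotated neighbours, partners, up to 4 genes per other list with the largest ratios in size, and the 3 genes nearest to the highest and lowest member. The list symbol apc7 had no match. Of the matched genes, 2 of the anaphase-promoting complex list were not tested. For mfr1, 0 spots were well above background, while apc15 kept only 1 spot on array 2 after outliers were dropped. Figures were made with Python 3.11.15 and matplotlib 3.10.9.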

Additional observations from a re-analysis of the deposited data

How the results depend on the processing

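In 12 of 14 alternatives with a test 7 GID genes were raised, and a member was lowered in 0 of the 14. Among those 12, the share of all genes raised ran from 15.1% with the authors' deposited ratios to 38.7% with spike-in centring. A looser adjusted p threshold of 0.10 used the same p-values and could not lose a call. Changing the filter left the ratios of the members unchanged. The number raised was 4 with halved prior degrees of freedom (9.93% of all genes) and 1 with median centring (2.94%). The calls lost with halved prior degrees of freedom were those of gid4 (adjusted p = 0.0685), gid7 (0.0602) and gid8 (0.0603), and the ratios were the same by construction. With median centring the call of gid5 held (adjusted p = 0.0463), and the others had adjusted p from 0.0961 for gid9 to 0.232 for gid4; the cause was not tested. The median ratio of the family moved to 0.68 with spike-in centring, which shifts every gene by 0.20. It was 0.43 without replicate 2 and 0.49 without replicate 1. Among the partners, ubc8 did not pass with median centring (0.62, adjusted p = 0.122), nor did ubp14 with median centring or halved prior degrees of freedom, and mdh1 passed with spike-in centring (0.39, adjusted p = 0.0142). The mga2 call held in all 13 alternatives with a value; it has none where signal above background in both channels was required. No paired analysis was possible beyond the one used, because the ratio within an array already pairs the 2 strains of 1 replicate.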
